A study of Mus musculus with 22 samples.

Results

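Collagens are the main structural proteins of the extracellular matrix: 44 of the 26379 gene symbols in the deposited count tables carry a symbol made of COL, a number, A and a number, and these 44 rows were followed in keratinocytes, skin and blood of mice that carry the K5-VGLL3 transgene. Of them, 38 are among the 21596 rows of the keratinocyte table and all 44 among the 24401 rows of the table that holds skin and blood. K5 stands for keratin 5, a keratin of basal keratinocytes, and VGLL3 is a cofactor that binds TEAD transcription factors on DNA. Nonlesional skin and whole blood came from the same 8 mice, 4 transgenic and 4 wild type, with 2 males (animals 1 and 2) and 2 females (animals 3 and 4) of each genotype, matched for age; the age itself is not given in the sources used here. Primary keratinocytes were grown for 3 days from the tail skin of 23-day-old littermates, 3 transgenic (cultures 2, 3 and 5, all male) and 3 wild type (cultures 1 and 4 female, culture 6 male). Each culture and each animal has a tag of its own in the labels. Neither the species from which the VGLL3 coding sequence was taken nor the number of founder lines is given there.

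Each collagen chain is a long repeat of glycine-led triplets, and the chains wind in groups into a rope-like helix. Fibrillar collagens, of which types I, III and V fill the dermis, pack into banded fibrils that fibroblasts lay down. Basement membrane collagens make the sheet below the epidermis: type IV forms its mesh, type VII forms the anchoring fibrils that tie it to the dermis, and types XV and XVIII carry sugar chains. Fibril-associated collagens such as types XII, XIV and XVI sit on the fibrils, and transmembrane collagens such as type XVII, which holds basal keratinocytes in hemidesmosomes, span the cell membrane. The remaining members here, types VI, VIII, X, XXVI and XXVIII, form beaded filaments, hexagonal nets or have less known assemblies. By these classes the 44 genes comprised 11 fibrillar, 9 basement membrane, 9 fibril-associated, 4 transmembrane and 11 other collagens.

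The type IV chains are encoded as 3 head-to-head gene pairs. DNA beside the starts of COL4A4, COL4A5 and COL4A6 is shown because these chains and COL4A3 pointed the opposite way to COL4A1 and COL4A2 in keratinocytes; the stretch at COL4A1 and COL4A2 is not shown. In the GENCODE annotation of mm10, the starts of COL4A3 and COL4A4 on chromosome 1 lie with 71 bases between them, those of COL4A5 and COL4A6 on chromosome X with 1308 bases between them, and those of COL4A1 and COL4A2 on chromosome 8 overlap by 22 bases. The promoters of COL7A1 and COL8A1 are added because these genes had the highest and the lowest fold change of the collagens tested in keratinocytes. All are from RefSeq on GRCm38.p6, read 5′ to 3′ on the strand of the gene named; capitals mark matches on either strand to GGAATG, the core that TEAD factors bind (CATTCC on the other strand), or to GGGCGG, the GC box (CCGCCC on the other strand), and no printed match overlaps another. COL4A4 is the whole stretch between its start and that of COL4A3, chr1:82586850-82586920. COL4A6 runs from 120 bases before its start to 10 after it, chrX:141474067-141474196. COL4A5 runs from 150 to 25 bases before its RefSeq start, since the GENCODE start lies further upstream, chrX:141475269-141475394. COL7A1 (chr9:108953466-108953585) and COL8A1 (chr16:57754738-57754857) are the 120 bases before the start.
COL4A4: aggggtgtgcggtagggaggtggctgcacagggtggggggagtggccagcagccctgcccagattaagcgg
COL4A6: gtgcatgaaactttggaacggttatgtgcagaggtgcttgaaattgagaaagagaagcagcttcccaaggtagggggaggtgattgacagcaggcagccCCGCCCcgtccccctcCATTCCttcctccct
COL4A5: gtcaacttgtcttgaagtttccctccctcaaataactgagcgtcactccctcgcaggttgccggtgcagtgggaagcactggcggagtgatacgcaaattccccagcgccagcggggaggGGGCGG
COL7A1: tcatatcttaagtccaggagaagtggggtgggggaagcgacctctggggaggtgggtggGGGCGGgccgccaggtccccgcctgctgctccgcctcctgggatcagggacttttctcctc
COL8A1: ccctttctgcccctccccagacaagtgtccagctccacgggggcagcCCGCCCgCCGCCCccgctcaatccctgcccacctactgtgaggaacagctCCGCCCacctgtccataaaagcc

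Of the 44 collagen genes, 35 matched a RefSeq promoter, with 38 windows of 300 bases in all. GGAATG was found in 5 of the 38 windows (13.2%), those of COL3A1, COL4A6, COL6A2, COL18A1 and COL20A1, and in 14.7% of the 32851 windows of all genes. GGGCGG was found in 23 of 38 collagen windows (60.5%) and in 35.7% of all windows. These matches describe letters and not bound sites.

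Libraries held 33412093 to 51877441 counts in keratinocytes, 19600892 to 40678246 in skin and 11197268 to 18235482 in blood. Levels are given as CPM, counts per 1000000 of a library size scaled by TMM, and levels of different genes are set side by side only as CPM per kb of merged exon. VGLL3 counts were 499, 478 and 406 CPM in the transgenic cultures and 225, 191 and 192 CPM in the wild-type ones (adjusted p = 0.000716), while in skin they were 98.9, 778, 123 and 92.2 CPM against 72.9, 92.4, 43.6 and 49.1 CPM and overlapped (adjusted p = 0.239). Markers matched the labels: the summed basal keratinocyte markers were at 36637 to 38854 CPM in transgenic and 37261 to 40771 CPM in wild-type cultures, and the pan-leukocyte markers in blood at 956 to 1572 and 706 to 1251 CPM. A gene passed when the Benjamini-Hochberg adjusted p of edgeR's quasi-likelihood test, over all genes tested in that tissue, was under 0.05.

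The collagens that a tissue makes differed widely in level. In wild-type keratinocytes COL17A1 stood at 614 ± 40.6 CPM per kb (SD, n = 3) and took 76.6% of the summed collagen level per kb, followed by COL18A1 at 114 ± 12.4, COL7A1 at 24.0 ± 5.38, COL8A1 at 15.5 ± 2.13, COL4A5 at 9.74 ± 1.43 and COL12A1 at 6.98 ± 0.784 CPM per kb. None of these 6 overlapped the next in that order, while COL4A2, COL4A1 and COL16A1, which came next, overlapped each other. In wild-type skin the chains of the dermal fibrils led, with COL1A1 at 38.1%, COL1A2 at 25.0% and COL3A1 at 18.7% of the summed level per kb and COL17A1 at 3.26%; each overlapped the next, and wild-type animal 2 was far above the other 3 in the first 3 of these genes. The order of COL1A1 and COL1A2 in wild-type skin rests on merged exon lengths of 6563 and 12426 bases. In CPM, COL1A2 was the higher there, at a mean of 14086.5 against 11336.7. All collagens together took 0.669 to 0.938% of the counts in transgenic and 0.475 to 0.558% in wild-type cultures, groups that did not overlap. Skin had 1.06 to 2.36% against 0.748 to 8.15%, and blood 0.00109 to 0.00624% against 0.00375 to 0.00744%, and these overlapped. In the cultures most collagen counts came from COL17A1, so the summed share there mainly follows that gene. It held 220417 of 313249 collagen counts in transgenic culture 2 and 184194 of 260142 in wild-type culture 1. In such bulk libraries, fewer cells of a type and less RNA per cell cannot be told apart.

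**Figure D1:**
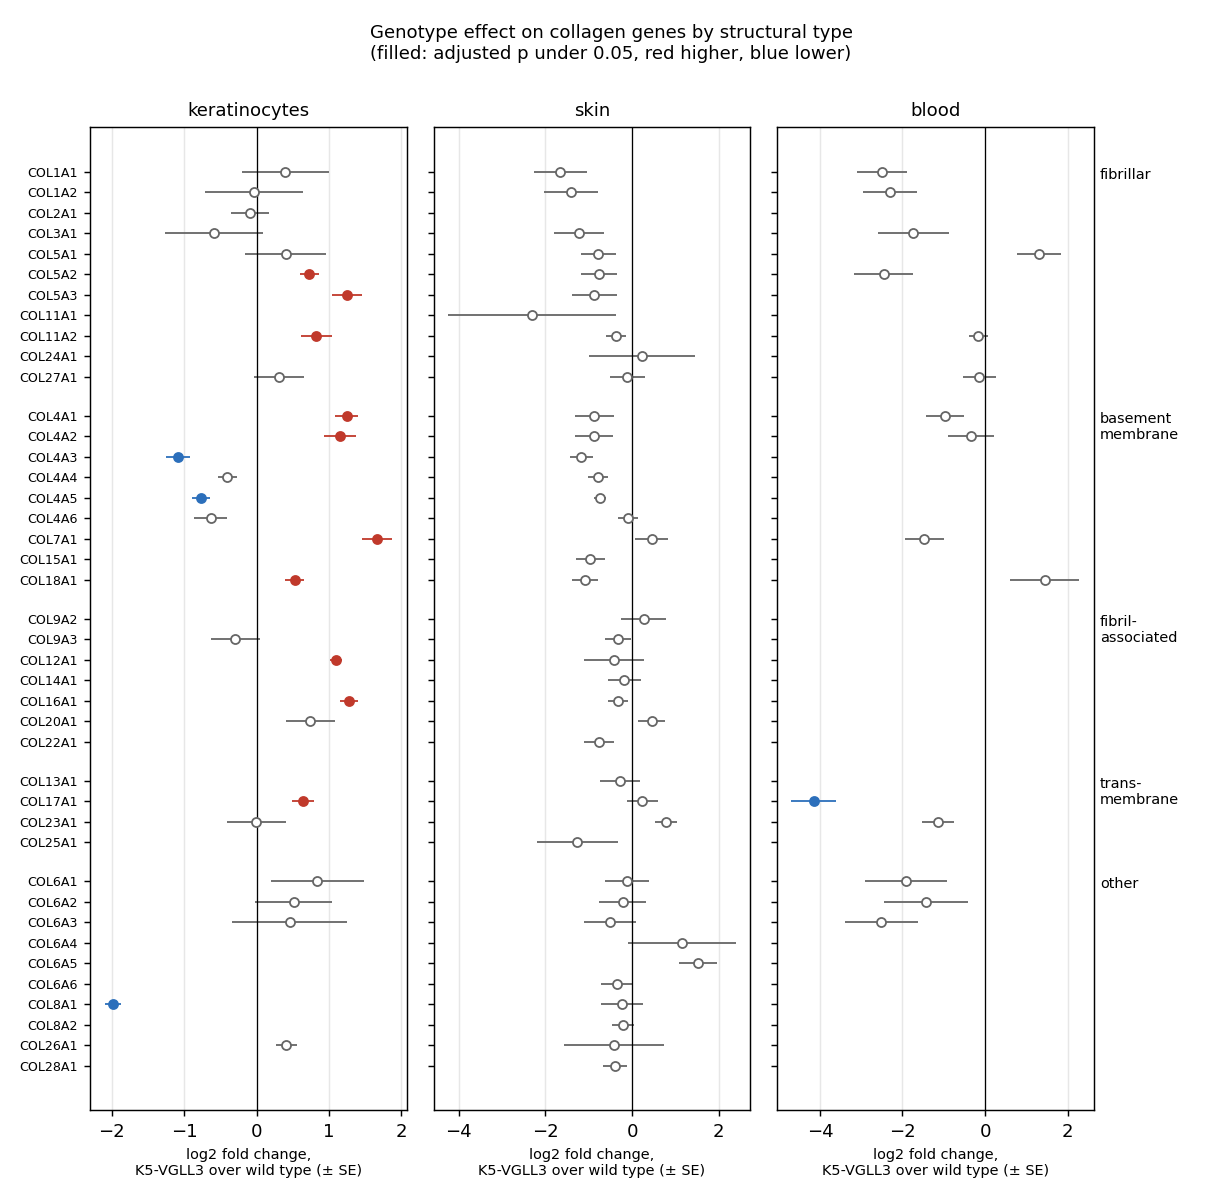
Log2 fold change, transgenic over wild type, with its standard error, for each collagen gene tested in keratinocytes (28 genes, left), skin (40 genes, middle) and blood (16 genes, right), grouped by structural type; each panel has its own horizontal scale. Filled points passed at an adjusted p under 0.05: 10 higher and 3 lower in keratinocytes, none in skin and COL17A1, lower, in blood.

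Cultured keratinocytes showed collagen differences in both directions. Of the 28 collagens tested, 13 passed (46.4%), where 15.2% of all 14451 genes tested passed; 10 were higher and 3 lower in transgenic cultures, beside 7.11% and 8.09% of all genes. The higher ones were the anchoring fibril chain COL7A1, the common type IV chains COL4A1 and COL4A2, the fibril-associated COL16A1 and COL12A1, the fibrillar COL5A3, COL11A2 and COL5A2, the hemidesmosomal COL17A1 and the sugar-bearing COL18A1. The lower ones were COL8A1 and the type IV chains COL4A3 and COL4A5. The median log2 fold change of the 28 was 0.43, beside 0.01 over all genes. The 2 genotypes did not overlap in 16 of the 28 (57.1%), 11 higher and 5 lower, beside 36.3% of all genes. Of the other 10 rows in the table, none had more than 59 counts over the 6 cultures and none entered the test.

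Among the basement membrane collagens, 4 of 8 tested rose, 2 fell and 2 did not pass. COL7A1 was at 919, 839 and 590.5 CPM in transgenic cultures 2, 3 and 5 and at 306, 238 and 196 CPM in wild-type cultures 1, 4 and 6. Every transgenic culture lay above every wild-type one, and culture 5 was the lowest of the transgenic group (log2 fold change 1.67 ± 0.21 SE, adjusted p = 0.00292). COL4A1 was at 61.3, 58.0 and 48.1 CPM against 29.2, 21.9 and 19.5 CPM (1.24 ± 0.16, adjusted p = 0.00334). COL4A2, its partner in the common type IV trimer, was at 59.9, 53.6 and 40.7 CPM against 29.3, 23.2 and 16.6 CPM (1.15 ± 0.22, adjusted p = 0.0144). In both genes the lowest transgenic culture stood above the highest wild-type culture. Cells of vessel walls also make these chains: endothelial markers summed to 7.52 to 8.73 CPM in transgenic and 6.70 to 9.17 CPM in wild-type cultures (7 markers, CDH5 at 0 in some wild-type ones, 1 of 5 tested higher and 1 lower), and pericyte and smooth muscle markers to 121 to 203 and 131 to 161 CPM (6 markers, MYH11 at 0 in some wild-type ones, 1 of 5 tested higher); both sums overlapped, and their part in the result was not tested. COL18A1, which releases the fragment endostatin, was at 1332, 1190.1 and 950.4 CPM against 893, 798 and 719 CPM (0.53 ± 0.13, adjusted p = 0.0391), again with no overlap.

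The other type IV chains pointed the opposite way. COL4A3, COL4A4 and COL4A5 build the mesh of the kidney filter, mutated in Alport syndrome, and COL4A5 also pairs with COL4A6 in the basement membrane of skin. COL4A5 was at 41.3, 33.6 and 40.6 CPM in transgenic and 70.3, 71.6 and 54.3 CPM in wild-type cultures (-0.76 ± 0.12, adjusted p = 0.00811). COL4A3 was at 1.96, 1.65 and 1.81 CPM against 4.26, 3.21 and 4.01 CPM (-1.09 ± 0.16, adjusted p = 0.00624). Their head-to-head partners had negative log2 fold changes that did not pass in edgeR, -0.63 ± 0.23 for COL4A6 (adjusted p = 0.107 in edgeR, 0.0261 in DESeq2, which called it) and -0.40 ± 0.13 for COL4A4 (adjusted p = 0.0812), and in all 4 genes the genotypes did not overlap. COL4A5 and COL4A6 lie on the X chromosome and the single male wild-type culture, culture 6, had the lowest COL4A5 of its group, above all 3 transgenic cultures, which are male; with sex as a term both COL4A5 and COL4A3 lost the call, at -0.50 (adjusted p = 0.0843) and -1.15 (adjusted p = 0.0509). Within each culture, the level per kb of COL4A1 over that of COL4A5 was 1.34, 1.55 and 1.07 in transgenic and 0.373, 0.275 and 0.322 in wild-type cultures, so COL4A1 was the more abundant of the pair in every transgenic culture and the less abundant in every wild-type one. Since COL4A1 was higher and COL4A5 lower in every transgenic culture, the separation of this ratio follows from those results and is no further test. COL4A1 and COL4A2 stayed near equal, with a ratio of 0.906 to 1.05 and 0.839 to 1.04.

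**Figure D2:**
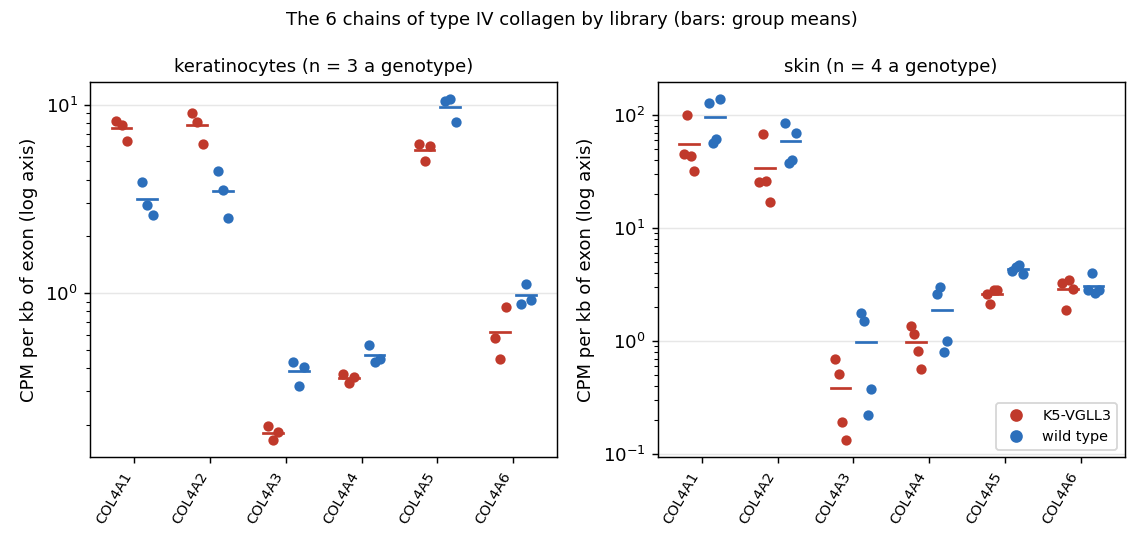
CPM per kb of exon on a log axis for the 6 type IV collagen chains in each keratinocyte culture (left, 3 a genotype) and each skin library (right, 4 a genotype), transgenic in red and wild type in blue, with group means as bars. In keratinocytes COL4A1 and COL4A2 lay higher and COL4A3 and COL4A5 lower in transgenic cultures; in skin COL4A5 was the chain whose genotypes did not overlap, at 14.4 to 19.1 CPM against 26.7 to 31.5 CPM before division by length.

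COL8A1 had the largest fall of the collagens tested in keratinocytes. It encodes a short-chain collagen that forms hexagonal nets, known from the cornea and from vessel walls. Its level was 31.7, 27.8 and 32.4 CPM in the transgenic cultures and 103, 134 and 129 CPM in the wild-type ones (-1.99 ± 0.11, adjusted p = 0.000299). The fourth most abundant collagen per kb in wild-type cultures, at 15.5 ± 2.13 CPM per kb, it was at 3.91 ± 0.319 in transgenic ones. Of the other 4 tested genes outside the named classes, none passed: COL26A1 had a log2 fold change of 0.41 ± 0.14 (adjusted p = 0.102), and the type VI chains are given with the fibrillar ones.

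The transmembrane COL17A1, the BP180 antigen of bullous pemphigoid, was at 6648, 6207 and 4469.9 CPM in transgenic and 3966, 3608 and 3500.0 CPM in wild-type cultures (0.65 ± 0.15, adjusted p = 0.0305). Culture 5 was the nearest to the wild-type range, and the groups did not overlap. COL23A1, the other transmembrane collagen tested, had 36 counts in each genotype and did not pass (adjusted p = 0.996). Of the fibril-associated genes 2 of 4 tested rose. COL12A1, which bridges type I fibrils, was at 235, 217 and 229 CPM against 119.7, 96.7 and 103 CPM (1.10 ± 0.08, adjusted p = 0.000501). COL16A1, which lies near the dermal-epidermal junction, was at 45.9, 41.4 and 37.3 CPM against 20.0, 16.6 and 14.8 CPM (1.27 ± 0.13, adjusted p = 0.00117). The transgenic cultures lay close together and above all wild-type ones in both genes. COL9A3, a chain of a cartilage collagen, had the lowest log2 fold change of the class, -0.30 ± 0.34 (adjusted p = 0.609).

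Of 9 fibrillar collagens tested, 3 rose and 6 did not pass. COL5A2, a chain of the collagen that starts type I fibrils, was at 39.2, 30.8 and 30.2 CPM against 22.3, 20.6 and 17.6 CPM (0.73 ± 0.13, adjusted p = 0.0108). COL5A3, a related chain, was at 3.98, 4.03 and 4.53 CPM against 1.27, 2.16 and 1.89 CPM (1.25 ± 0.21, adjusted p = 0.00858). COL11A2, a cartilage collagen chain, passed at a low level, 1.32 ± 0.140 against 0.737 ± 0.114 CPM (0.82 ± 0.22, adjusted p = 0.0435). It did not pass in DESeq2 (adjusted p = 0.0638) or with no filter on low counts (adjusted p = 0.0601). The dermal chains did not pass, and culture 5 stood apart in them: COL1A1 was at 3.29, 3.29 and 16.4 CPM in transgenic cultures 2, 3 and 5 and 5.32, 5.79 and 6.71 CPM in the wild-type ones (0.40 ± 0.60, adjusted p = 0.704). COL1A2 (-0.03 ± 0.68), COL3A1 (-0.59 ± 0.68), COL5A1 (0.40 ± 0.56), COL6A1 (0.84 ± 0.64), COL6A2 (0.51 ± 0.53) and COL6A3 (0.45 ± 0.80) also had their highest transgenic level in culture 5, with adjusted p from 0.427 to 0.981. The 9 fibroblast markers of the table summed to 26.7, 24.7 and 39.6 CPM in these transgenic cultures and to 18.3 to 22.3 CPM in the wild-type ones, with none of 5 tested passing in edgeR (2 at an unadjusted p under 0.05, 2 called by DESeq2); MFAP5 was at 0 in some transgenic cultures and TWIST2 and FAP in some wild-type ones. Their part in the result was not tested. Without culture 5, 19 collagens passed, with COL1A1, COL1A2, COL3A1, COL4A6, COL5A1 and COL6A3 added as lower. The share of all genes that passed in that fit is not given, so this count has no background beside it.

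**Figure D3:**
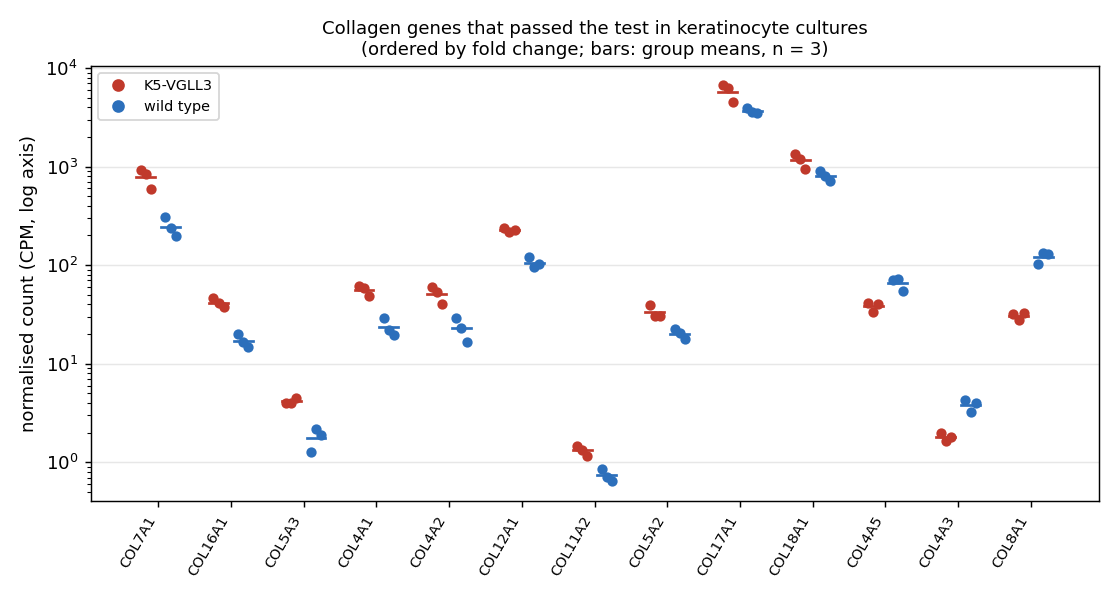
CPM on a log axis of the 13 collagen genes that passed in keratinocytes, in each of the 3 transgenic (red) and 3 wild-type (blue) cultures, with group means as bars and genes ordered by fold change. No gene shown overlaps between genotypes; COL7A1 leads the 10 higher genes and COL8A1 is at the far end of the 3 lower ones.

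Sex was uneven in the cultures, and a fit with sex as a term kept 7 of the 13, COL4A1, COL4A2, COL5A2, COL7A1, COL8A1, COL12A1 and COL16A1, as the 6 higher and 1 lower. The other 6, COL4A3, COL4A5, COL5A3, COL11A2, COL17A1 and COL18A1, kept their direction and lost the call, with adjusted p of edgeR between 0.0509 and 0.164, and COL11A2, COL17A1 and COL18A1 also lost the call without any 1 culture other than culture 5. Without wild-type culture 4, 8 passed, COL4A2 and COL5A2 being lost as well, and COL4A2 was lost without transgenic culture 2 or 3. The share of all genes that passed in these fits is not given, so these counts have no background beside them.

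Genes that make, bind or cut collagen were read in the same cultures. Of 26 tested genes of collagen biosynthesis and processing, 7 rose (26.9%) and 1 fell (3.85%), beside 7.11% and 8.09% of all genes. PXDN, the peroxidase that cross-links type IV collagen, was at 94.0 ± 14.7 against 31.1 ± 4.73 CPM (log2 fold change 1.60 ± 0.15, adjusted p = 0.000956). PCOLCE2, a procollagen proteinase enhancer, was at 8.47 ± 2.09 against 2.66 ± 0.663 CPM (1.66 ± 0.25, adjusted p = 0.00566), and P4HA1, a prolyl hydroxylase subunit, was at 86.7 ± 11.3 against 54.2 ± 5.20 CPM (0.68 ± 0.11, adjusted p = 0.00761). LOXL4, a lysyl oxidase relative, was the one that fell and is named after its value was seen (-0.64 ± 0.14, adjusted p = 0.0215). The list's median was 0.17, beside 0.01 over all genes. Each of the next 4 lists had 1 gene passing in edgeR, a share below the 15.2% of all genes that passed, and is given as values. Of 7 receptors and uptake genes tested, MRC2, a collagen uptake receptor, rose (1.60 ± 0.15, adjusted p = 0.000962). Of 7 collagen-degrading proteases and inhibitors, the collagenase MMP13 rose from 7.39 ± 4.90 to 69.5 ± 53.6 CPM (3.21 ± 0.80, adjusted p = 0.0368). ITGA6, the laminin receptor of the hemidesmosome, was 1 of 11 hemidesmosome and anchoring genes to pass (0.82 ± 0.20, adjusted p = 0.0344), and HSPG2, perlecan, 1 of 8 basement membrane partners (0.47 ± 0.11, adjusted p = 0.0278). At an unadjusted p under 0.05 in edgeR these 4 lists counted 2 of 7, 3 of 7, 7 of 11 and 3 of 8, beside 4435 of all 14451 genes. DESeq2 called 2, 2, 4 and 2 of their genes, among 2509 genes in all. The median log2 fold change of the 11 hemidesmosome and anchoring genes was 0.44, with 9 positive, beside 0.01 over all genes.

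In skin, none of the 40 collagens tested passed in edgeR, where 0.0112% of all 17901 genes did; at an unadjusted p under 0.05 there were 8 of 40 (20.0%), beside 17% of all genes, and DESeq2 called 6, among 1086 genes in all. Most log2 fold changes were below 0: 32 of 40, with a median of -0.38 beside -0.01 over all genes. The 5 pan-leukocyte markers pointed the other way, with sums of 331 to 704 CPM in transgenic and 125 to 378 CPM in wild-type skin, all 5 log2 fold changes above 0 (median 1.04), none at 0 CPM and none passing in edgeR (3 at an unadjusted p under 0.05, 2 called by DESeq2); their part in the result was not tested. By class the medians were -0.83 for 10 fibrillar, -0.87 for 9 basement membrane, -0.32 for 7 fibril-associated, -0.02 for 4 transmembrane and -0.22 for 10 other collagens. The genotypes did not overlap in 2 of 40, COL4A5 and COL18A1, beside 7.41% of all genes.

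COL4A5 was at 17.5, 14.4, 19.0 and 19.1 CPM in transgenic animals 1 to 4 and 27.9, 30.5, 31.5 and 26.7 CPM in wild-type animals 1 to 4. The genotypes were apart in both sexes, and the log2 fold change was -0.74 ± 0.14 (unadjusted p = 0.000672, adjusted p = 0.167 in edgeR, 0.000227 in DESeq2). The value in keratinocytes, from other animals, was -0.76 in a fit without a sex term, whereas the skin fit had one. With sex as a term the keratinocyte fall was smaller and did not pass (adjusted p = 0.0843 in edgeR). The other keratinocyte values set beside skin here are also from the fit without that term. COL18A1 was at 81.3, 153, 102 and 79.9 CPM against 202, 155, 316 and 228 CPM (-1.09 ± 0.30, adjusted p = 0.223 in edgeR and 0.023 in DESeq2), where in keratinocytes it was higher by 0.53. COL4A1 was at -0.87 ± 0.45 and COL4A2 at -0.88 ± 0.44 on the log2 scale (adjusted p = 0.347 and 0.339), against 1.24 and 1.15 in keratinocytes. COL7A1, at 108, 112, 132 and 156 CPM against 83.4, 150.4, 38.0 and 106 CPM, overlapped (0.46 ± 0.38, adjusted p = 0.547), as did COL17A1 (0.24 ± 0.35, adjusted p = 0.741).

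The dermal fibril chains varied widely among wild-type animals. COL1A1 was at 2669, 4595, 1861 and 1727 CPM in transgenic and 8890.3, 29786, 1455 and 5215 CPM in wild-type animals 1 to 4 (-1.65 ± 0.61, adjusted p = 0.262 in edgeR and 0.042 in DESeq2). Wild-type animal 2 was the highest of the 8 and wild-type animal 3 the lowest. COL1A2 (-1.42 ± 0.63, adjusted p = 0.301) and COL3A1 (-1.23 ± 0.58, adjusted p = 0.324) had the same animals at their ends. COL1A1 over COL1A2, the 2 chains of type I collagen, was 1.34, 1.38, 1.23 and 1.20 per kb in transgenic and 1.58, 1.51, 1.49 and 1.502 in wild-type animals 1 to 4, a narrow span beside that of the levels, with every transgenic animal below every wild-type one. The size of the COL1A1 over COL1A2 ratio depends on the exon lengths used, which are the same for all animals. Other ratios of chains were read as well, such as COL3A1 over COL1A1, which overlapped between genotypes. The difference in the COL1A1 over COL1A2 ratio was not tested. COL5A1, which starts type I fibrils, had -0.78 ± 0.41 (adjusted p = 0.354). The fibril-associated COL12A1 and COL14A1 had -0.42 ± 0.70 and -0.18 ± 0.39 (adjusted p = 0.773 and 0.826), and COL6A1, of the beaded filaments, -0.13 ± 0.51 (adjusted p = 0.915). Of the 32 collagen biosynthesis and processing genes tested in skin none passed in edgeR, 1 had an unadjusted p under 0.05 and DESeq2 called 0 (median -0.13). Of 10 fibroblast markers, 9 had a log2 fold change above 0 and none passed in edgeR (2 at an unadjusted p under 0.05, 1 called by DESeq2), with a sum of 1742 to 2857 CPM in transgenic and 958 to 2245 CPM in wild-type skin and no marker at 0. COL6A5, a chain of beaded filaments, was at 5.07, 11.4, 10.7 and 9.66 CPM against 6.22, 3.66, 1.70 and 2.36 CPM (1.53 ± 0.44, adjusted p = 0.225 in edgeR, 0.015 in DESeq2), with transgenic animal 1 inside the wild-type range. Among the remaining classes the highest and lowest log2 fold changes were 0.23 ± 1.23 for the fibrillar COL24A1, 0.45 ± 0.31 and -0.77 ± 0.34 for the fibril-associated COL20A1 and COL22A1, and 0.78 ± 0.25 and -1.27 ± 0.93 for the transmembrane COL23A1 and COL25A1 (adjusted p = 0.939, 0.461, 0.304, 0.235 and 0.496). COL15A1, a basement membrane collagen, had -0.97 ± 0.33 (adjusted p = 0.249). In edgeR no gene passed among 9 collagen receptors and uptake genes, 9 proteases and inhibitors, 9 small leucine-rich proteoglycans, 11 hemidesmosome and anchoring genes and 11 basement membrane partners. At an unadjusted p under 0.05 they counted 0, 3, 0, 2 and 2, and DESeq2 called 0, 1, 0, 0 and 1.

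The skin libraries differed in the level of hair follicle RNA, here called hair follicle content, and some collagens were ordered by it. The number of follicle cells and their RNA per cell cannot be told apart. The 23 hair follicle genes all had log2 fold changes below 0, none passing in edgeR (2 at an unadjusted p under 0.05, 6 called by DESeq2), with a median of -5.84; they summed to 55.6, 4217, 64.7 and 72.2 CPM in transgenic animals 1 to 4 and 8297, 65.6, 59980.1 and 14626 CPM in wild-type animals 1 to 4. KRT33B, KRT34, KRT81, KRT85, KRT86 and GPRC5D were at 0 in some libraries of each genotype, and KRT72 in some transgenic ones. COL11A1, a fibrillar chain, was at 1.99, 70.5, 5.83 and 2.24 CPM and 69.6, 2.71, 14.7 and 193 CPM (-2.31 ± 1.94, adjusted p = 0.551), with the 4 libraries of high hair follicle content at 14.7 CPM or more and the 4 others at 5.83 or less. COL4A1 was at 337, 754, 325 and 241 CPM in transgenic and 966, 424, 458 and 1033 CPM in wild-type animals, so that here too the 4 libraries of high hair follicle content were above the 4 others. Its partner COL4A2 was ordered the same way, at 267 CPM or more against 252 or less, whereas COL4A5 was not. COL17A1 was at 1144, 611, 1194 and 1059.9 CPM in transgenic and 915, 1429.9, 557 and 655 CPM in wild-type animals 1 to 4, the reverse order: the 4 libraries of low hair follicle content were above the 4 others. Neither the number of collagens nor the share of all genes ordered by hair follicle content is given, so these genes are examples without a background. The part of the hair follicle content in the result was not tested beyond a fit with the score as a covariate, in which no collagen passed and 6 of the 22 skin collagens named by the rule, among them COL11A1, COL12A1, COL14A1 and COL17A1, turned direction. Without animal 2 of each genotype, a choice made after the values were seen, 7 collagens were lower (COL4A1, COL4A2, COL4A5, COL11A1, COL18A1, COL25A1 and COL26A1), but there hair follicle content and genotype do not overlap and cannot be told apart. The share of all genes that passed in that fit is not given.

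**Figure D4:**
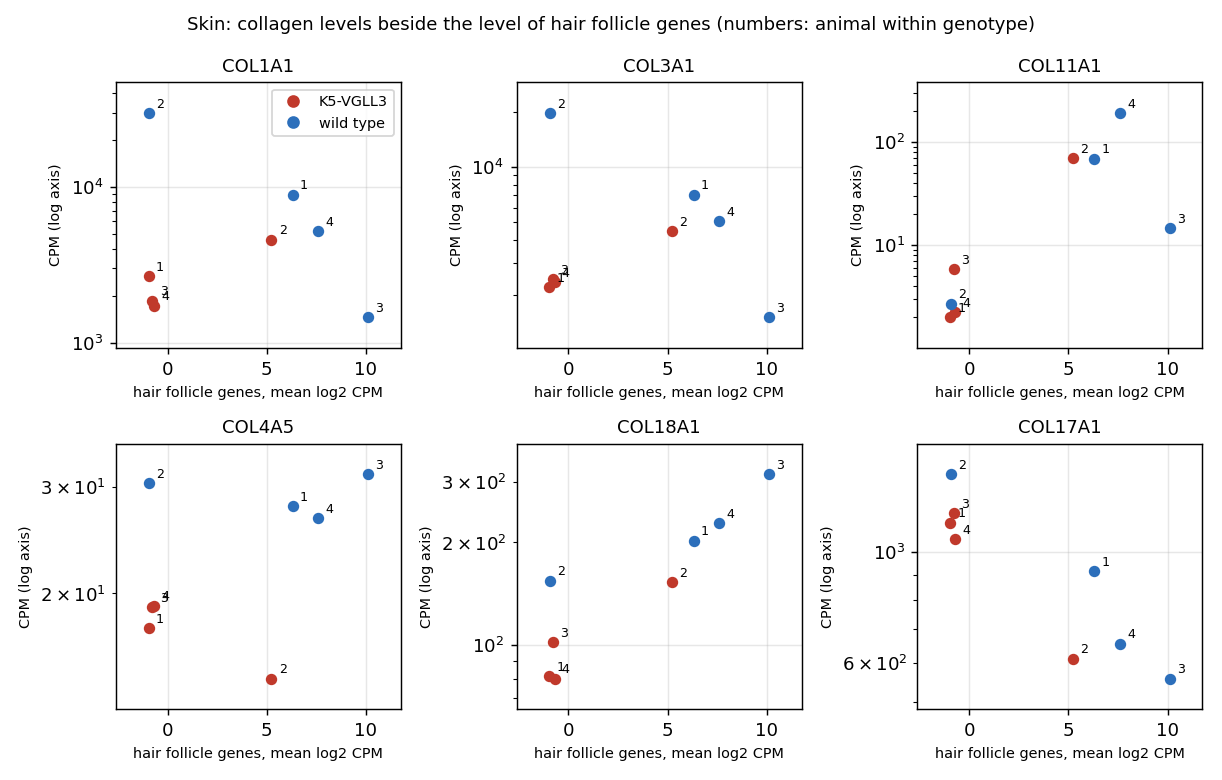
CPM on a log axis of 6 collagen genes in the 8 skin libraries (transgenic red, wild type blue, numbered by animal), against the mean log2 CPM of 23 hair follicle genes. Transgenic animals 1, 3 and 4 and wild-type animal 2 lie at the low end of the hair axis; COL11A1 is low in these 4, COL4A5 separates the genotypes at both ends, and COL1A1 is highest in wild-type animal 2.

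Sex was read in skin after the values had been seen, because COL4A3 split the animals by sex more than by genotype. COL4A3 was at 6.91, 5.12, 1.92 and 1.32 CPM in transgenic and 17.7, 15.2, 2.20 and 3.72 CPM in wild-type animals 1 to 4, of which 1 and 2 are male. All 4 males were above all 4 females, 11.2 ± 6.16 against 2.29 ± 1.02 CPM (SD, n = 4), and its head-to-head partner COL4A4 was at 21.7 ± 9.93 against 8.47 ± 1.90 CPM. In the sex term of the same edgeR fit the female minus male log2 difference was -2.19 ± 0.28 for COL4A3 (adjusted p = 0.171) and -1.26 ± 0.23 for COL4A4 (adjusted p = 0.329), so neither passed; 0.0279% of all 17901 genes passed and 0 of 40 collagens, while 6 of 40 (15%) had an unadjusted p under 0.05 beside 10.5% of all genes. Across genotypes COL4A3 had -1.17 ± 0.27 and COL4A4 -0.78 ± 0.23 (adjusted p = 0.2 and 0.227 in edgeR; DESeq2 called both). The sex-by-genotype term passed for 0 of 42 collagens in skin and 0 of 18 in blood in edgeR, beside 0% and 0% of all genes; 4 and 1 of them had an unadjusted p under 0.05, and no other tool was run on that term.

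Blood held little collagen RNA, and 1 tested chain, COL17A1, was lower in transgenic animals past the threshold. This was 1 of 16 collagens tested (6.25%), where 0.761% of all 11174 genes passed and 0.546% passed as lower. The log2 fold change was below 0 in 14 of the 16, with a median of -1.45 beside -0.04 over all genes. Unadjusted p was under 0.05 in 8 of 16 (50.0%), beside 15.5% of all genes, and the genotypes did not overlap in 6 of 16 (37.5%), all lower, beside 8.75%. No fibril-associated collagen had enough counts to be tested, and of the 28 untested collagens 4 had no count in any blood library.

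COL17A1 was at 0.236, 0.0526, 0.253 and 0.219 CPM in transgenic and 2.35, 5.45, 1.86 and 4.38 CPM in wild-type animals 1 to 4, from 6, 1, 3 and 3 counts against 42, 43, 29 and 34. Each transgenic animal was below each wild-type one (-4.15 ± 0.54, adjusted p = 0.0172). The log2 fold change stayed between -4.41 and -3.77 when 1 library was left out, but without transgenic animal 1, 3 or 4 or wild-type animal 2 or 4 its adjusted p was between 0.0712 and 0.106, and without transgenic animal 2 there were 8 passing collagens. With no filter on low counts 11 passed, and DESeq2 called 4, among 442 genes in all. Both counts take in COL8A1, which was not tested in the main fit. The share of all genes is not given for the fits with 8 and 11 passing collagens. COL1A1 was at 0.354, 4.36, 0.758 and 1.10 CPM against 8.07, 12.7, 5.14 and 9.27 CPM (-2.49 ± 0.61, adjusted p = 0.112 in edgeR and 0.0017 in DESeq2). COL1A2 was at 0.864, 8.31, 1.18 and 2.41 CPM against 10.3, 24.1, 7.0 and 18.3 CPM (-2.31 ± 0.65, adjusted p = 0.151 in edgeR and 0.00541 in DESeq2). Transgenic animal 2 was the highest of its group in both chains. Like COL17A1, COL1A1 did not overlap between genotypes, and nor did COL5A2 (-2.46 ± 0.70, adjusted p = 0.157), COL7A1 (-1.47 ± 0.48, adjusted p = 0.201), COL23A1 (-1.14 ± 0.39, adjusted p = 0.225) and COL4A1 (-0.98 ± 0.46, adjusted p = 0.345). COL1A2 overlapped, with transgenic animal 2 above wild-type animal 3. COL3A1 (-1.74 ± 0.86, adjusted p = 0.37) and the type VI chains COL6A3 (-2.51 ± 0.89, adjusted p = 0.228) and COL6A2 (-1.43 ± 1.02, adjusted p = 0.534) overlapped as well. COL5A1 (1.30 ± 0.54, adjusted p = 0.296) and COL18A1 (1.44 ± 0.84, adjusted p = 0.437) had the 2 values above 0, and COL18A1 was high in transgenic animal 2 alone, at 1.81, 9.04, 1.09 and 1.53 CPM in animals 1 to 4.

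Some keratinocyte and skeletal muscle markers were also lower in transgenic blood. KRT5, the partner keratin of basal cells, was at 0.943, 0.894, 0.505 and 0.730 CPM in transgenic and 10.04, 24.3, 11.8 and 22.9 CPM in wild-type animals 1 to 4 (-4.45 ± 0.38, adjusted p = 0.00366). Of 6 basal keratinocyte markers tested 3 were lower, and all 6 suprabasal ones, with a median of -5.56; the 8 suprabasal markers summed to 0.926 to 2.37 CPM in transgenic and 33.2 to 115 CPM in wild-type blood, with KRT1, KRT2, FLG and DSC1 at 0 in some transgenic libraries and none at 0 in wild-type ones. Of 8 skeletal muscle markers tested 4 were lower, at summed levels of 4.12 to 7.49 against 21.1 to 42.4 CPM, with TNNC2 at 0 in all 8 libraries. The 10 fibroblast markers summed to 17.4 to 32.7 against 27.8 to 60.2 CPM, with TWIST2 at 0 in all, and MMP2 and LUM, matrix genes of connective tissue, were lower (-3.09 ± 0.52 and -3.10 ± 0.58, adjusted p = 0.0429 and 0.0494). MMP2 was the 1 gene of 7 tested collagen-degrading proteases and inhibitors to pass, and the list's 9 genes summed to more in transgenic blood, 285 to 1006 against 60.04 to 226 CPM without overlap, most of it from MMP8 and MMP9, proteases of neutrophils, which did not pass (3.78 ± 0.83 and 2.21 ± 0.63, adjusted p = 0.0836 and 0.16). Of 15 collagen biosynthesis genes tested in blood none passed in edgeR, 2 had an unadjusted p under 0.05 and DESeq2 called 1. Other values were mixed. The basal keratinocyte markers summed to 149 to 231 against 194 to 327 CPM and overlapped. None of 4 fibroblast markers tested passed in edgeR, all 4 with a log2 fold change below 0 (2 at an unadjusted p under 0.05, 1 called by DESeq2). Of 9 hemidesmosome and anchoring genes tested 2 passed as lower, and of 2 adipocyte markers 1, beside 0.546% of all genes. Of 4 hair follicle genes tested 3 were above 0 and 1 passed as lower, and of 4 endothelial markers 2 were above 0 and none passed. The part of skin cells or other tissue in the blood result was not tested.

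**Figure D5:**
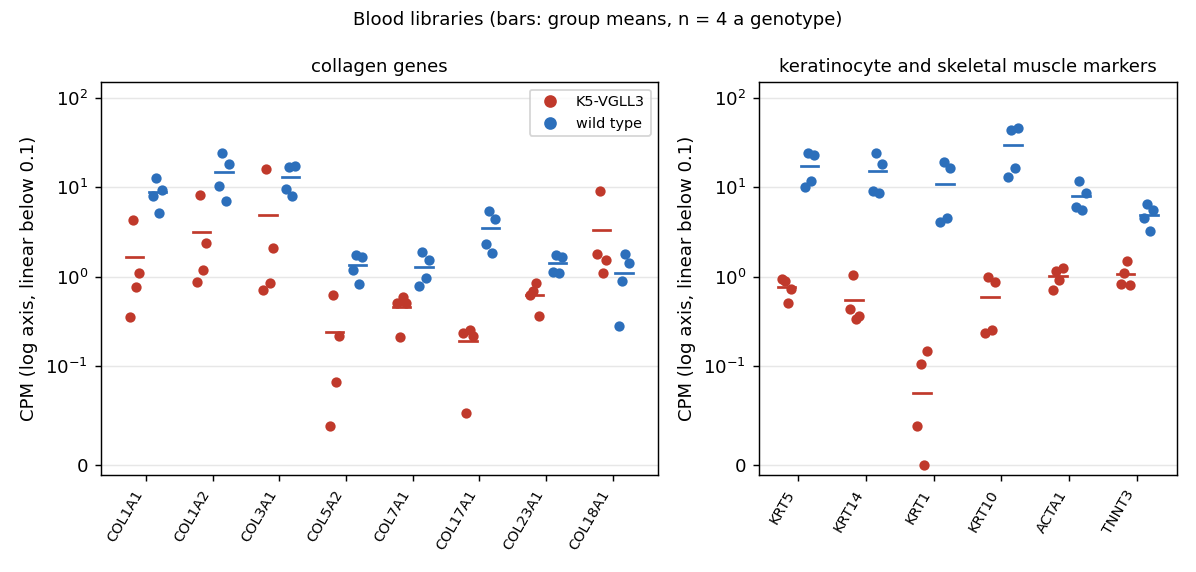
CPM in each blood library (transgenic red, wild type blue, 4 a genotype, bars at group means; log axis, linear below 0.1) for 8 collagen genes on the left and for keratinocyte and skeletal muscle markers on the right. COL17A1, KRT5, KRT14, KRT1, KRT10, ACTA1 and TNNT3 lie lower in all 4 transgenic animals, while COL18A1 does not.

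The genotype effect was compared between skin and blood of the same animals in 1 fit with animal as a block. Of 40 collagens tested, 3 differed (7.50%), all with the skin effect above the blood effect, where 1.21% of all 17803 genes differed and 0.938% in that direction. COL17A1 had a skin minus blood difference of 4.41 ± 0.39 on the log2 scale (adjusted p = 0.00241), COL7A1 of 2.05 ± 0.40 (adjusted p = 0.0417) and COL23A1 of 2.02 ± 0.40 (adjusted p = 0.0464). COL1A1, with 1.46 ± 0.77, did not differ beyond its error (adjusted p = 0.418). RNA of the 2 tissues was isolated with different kits, so only effects, not levels, are compared, and leaving out 1 animal at a time gave 1 to 8 collagens in that direction.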

How the data were processed

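RNA-seq was deposited for 22 libraries: 6 primary keratinocyte cultures and, from 8 mice, 8 nonlesional skin and 8 whole blood libraries. Per the labels' protocols, RNA was isolated with a different reagent for each tissue, and stranded mRNA libraries were made with a TruSeq kit and sequenced on an Illumina HiSeq instrument. The authors deposited whole-number counts that were not normalized, in 1 table for keratinocytes and 1 for skin and blood. The submitters' processing notes list mm10 as the build and the tools DESeq2, HTSeq (version 0.6.1) and STAR (version 2.5.2), without settings. Whether counting used strand is not stated, so reads of overlapping or antisense genes may be shared.

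Samples were grouped by the strain label, and every column was used. Each tissue was fitted apart with edgeR 4.0.16 in R 4.3.3 (TMM, filterByExpr, quasi-likelihood test, Benjamini-Hochberg over all genes tested, threshold 0.05), with a sex term for the animals' tissues but not for the cultures; skin minus blood came from 1 fit with animal as a block, and a sex-by-genotype term from further fits. Standard errors are the absolute log2 fold change over the square root of F. CPM per kb used merged exon lengths of GENCODE vM21. The scripts were tested on simulated data. Total counts of 11197268 to 51877441 per library set the precision of low genes. P-values measure the spread between these animals and cultures.

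Members are the rows whose symbol fits the stated pattern; members, structural types, related gene lists and marker lists were chosen with earlier results of these data known. Named genes are 12 collagens fixed by name, those that passed, the extremes of each structural type, those at unadjusted p under 0.05 with no overlap, and up to 3 called genes of each related list. Replicate numbers in skin and blood come from the animal tags; same-number libraries of the 2 genotypes had deviations correlated at -0.46 to 0.08 in skin and -0.25 to 0.41 in blood, so the numbers do not pair the animals. All 30 replicate pairs differed beyond sampling noise (chi-square per degree of freedom of 4.51 or more). Alternatives were RLE size factors, no filter, DESeq2 1.42.0, a sex term added or left out, a replicate block, a hair follicle covariate, TMM without skin-abundant genes, and leaving out each library. Motif matches used Python 3.11.15 and figures matplotlib 3.10.9.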

Additional observations from a re-analysis of the deposited data

Results flagged for a closer look

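Of 59 groups of 4 libraries with a mean of at least 1 CPM, 7 held a library far from the other 3 (a gap, as a share of the range, above Dixon's critical value), and chance alone marks about 1 in 20 such groups. Transgenic animal 2 was that library in 6 of the 7. In its skin COL3A1 was at 4459.8 CPM, COL5A1 at 389 CPM, COL11A1 at 70.5 CPM and COL24A1 at 15.3 CPM, each above the other 3 transgenic animals, and it was the transgenic library with high hair follicle genes. In its blood COL3A1 was at 16.03 CPM and COL18A1 at 9.04 CPM, again above the other 3. Wild-type animal 4 stood apart in blood for COL4A1, at 2.06 CPM.

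The genotype effect differed between skin and blood, as skin minus blood in log2 units, for COL17A1 (4.41), COL7A1 (2.05) and COL23A1 (2.02) in the edgeR test of the difference itself.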

How the results depend on the processing

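Of the 13 collagens that passed in keratinocytes, all kept their direction under every alternative run. With sex as a term 6 were higher and 1 lower, and the direction of COL9A3, which did not pass, turned to 0.13. Leaving out 1 culture at a time gave 5 to 10 higher and 3 to 9 lower collagens, with log2 fold changes of -0.86 to 0.75 for COL1A1, -1.57 to 0.37 for COL1A2, -0.72 to 0.73 for COL5A1, -0.47 to 1.22 for COL6A1 and -0.31 to 0.40 for COL23A1. In skin DESeq2 called 1 higher and 5 lower, and 7 were lower without the second library of both genotypes. The hair follicle covariate turned COL6A1 to 0.090, COL11A1 to 0.39, COL12A1 to 0.54, COL14A1 to 0.40, COL17A1 to -0.43 and COL20A1 to -0.066. COL24A1 turned to -1.55 without the second libraries. Leaving out 1 skin library at a time gave -0.69 to 0.43 for COL6A1, -1.26 to 0.17 for COL6A3, -1.26 to 0.14 for COL12A1, -0.49 to 0.19 for COL14A1 and -1.36 to 1.17 for COL24A1, with no collagen called. In blood 2 were higher and 9 lower without the filter, and 4 lower in DESeq2; leaving out 1 library gave 0 to 1 higher and 0 to 7 lower, and -0.69 to 0.14 for COL4A2. With a replicate block in place of sex, 3 were lower in blood (COL1A1 and COL1A2 added) and COL24A1 in skin turned to -0.26; the numbers do not pair these animals. For skin minus blood, a fit without animal as a block, with sex and genotype as terms in its place, gave 2 higher and 0 lower. Leaving out 1 animal gave 1 to 8 higher and 0 to 2 lower. These counts of collagens are given without the share of all genes that passed in the same fit. The cause of these shifts was not tested. In blood 28 of 44 collagens had too few counts to be tested in the main fit. Among these, COL8A1 was called by DESeq2 and in the fit without the filter, so untested does not mean unchanged.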

Other observations

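Some collagens had too few counts to be tested and are given here as counts. In keratinocytes COL19A1, a fibril-associated collagen, had 8, 3 and 6 counts in transgenic cultures 2, 3 and 5 and none in the 3 wild-type ones. COL6A4, a type VI chain, had 14, 5 and 8 against 1, 1 and 0 counts. In a fit without the filter both passed as higher. In blood COL8A1 had 0, 0, 0 and 1 counts in transgenic and 5, 10, 6 and 7 counts in wild-type animals 1 to 4, and it was also the collagen with the largest fall among those tested in keratinocytes, from other animals; in skin of the same mice as the blood it overlapped (-0.23 ± 0.49, adjusted p = 0.822 in edgeR). In blood, COL8A1 was called by DESeq2 and in a fit without the filter. COL16A1 in blood had 1, 12, 0 and 3 against 14, 16, 10 and 5 counts.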
